A study of Mus musculus with 16 samples.

Results

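The chemokines and chemokine receptors of the mouse were followed in spleen RNA over 5 days of imiquimod treatment. They were taken by name, as every gene symbol made of Ccl, Cxcl, Ccr or Cxcr and a digit, which gave 54 of the 55291 symbols in the tables once 2 pseudogenes had been left out. The 54 symbols were 37 ligands (24 Ccl and 13 Cxcl) and 17 receptors (11 Ccr and 6 Cxcr), each represented by its transcript with the highest mean fragment count. Of these, 34 passed a filter on low counts (18 ligands and 16 receptors) and could be tested, 20 did not pass, and 3 of those 20 (Ccl11, Cxcl14 and Cxcl15) had no count in any library. PKR KO mice and WT mice, all male and of the C57BL/6 strain, were sampled on days 0, 1, 2 and 5. PKR is the kinase encoded by Eif2ak2, which double-stranded RNA activates. On days 1, 2 and 5 the mice of both genotypes had received 62.5 mg of 5% imiquimod cream a day on shaved skin of the back, which activates Toll-like receptor 7 and serves as a model of psoriasis. Day 0 mice had 0 days of treatment, and no group was given cream without imiquimod, so the effects of the drug, the cream and the handling cannot be told apart. The labels used here give neither the age of the mice nor which stretch of Eif2ak2 the knockout removes. Each of the 8 groups had 2 libraries, and each library combined spleen RNA of 2 mice. The spread between mice inside a pool was not measured, and the p-values rest on the spread between libraries.

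Chemokines are small secreted proteins that direct the movement of leukocytes. They act through receptors of the cell surface that couple to inhibitory G proteins, so that a cell moves toward a rising concentration of the ligand. Some are induced in inflammation, such as Cxcl10 and Ccl2, which draw activated T cells and monocytes. Others are made constantly by stromal cells of lymphoid organs, such as Cxcl13, Ccl19, Ccl21 and Cxcl12, and keep B cells, T cells and plasma cells in their compartments of the spleen through Cxcr5, Ccr7 and Cxcr4.

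Many chemokine genes lie side by side. With neighbours joined at gaps of up to 1 Mb, 38 of the 54 members fell into 9 clusters and 16 stood alone. The promoters of 4 ligands are shown because these genes differ in behaviour although some are neighbours: Cxcl10 and Cxcl9 lie in the same cluster, Cxcl2 lies elsewhere on that chromosome, and Ccl12 lies in a cluster of monocyte-attracting ligands. Each sequence is the 250 bases before the RefSeq start of the gene in GRCm38.p6, read 5′ to 3′ on the gene's own strand. Capitals mark matches to 2 motifs on either strand. The core of an interferon-stimulated response element was searched as GAAA, any 2 bases and GAAA, and a loose form of an NF-kB site as GGG, any 5 bases and CC.
Cxcl10, chr5:92348890-92349139, minus strand: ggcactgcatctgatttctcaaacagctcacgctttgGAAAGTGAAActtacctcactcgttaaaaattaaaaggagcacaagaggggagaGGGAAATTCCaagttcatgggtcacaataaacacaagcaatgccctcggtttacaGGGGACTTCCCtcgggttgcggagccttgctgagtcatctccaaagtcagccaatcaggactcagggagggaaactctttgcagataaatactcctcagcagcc
Cxcl9, chr5:92328080-92328329, minus strand: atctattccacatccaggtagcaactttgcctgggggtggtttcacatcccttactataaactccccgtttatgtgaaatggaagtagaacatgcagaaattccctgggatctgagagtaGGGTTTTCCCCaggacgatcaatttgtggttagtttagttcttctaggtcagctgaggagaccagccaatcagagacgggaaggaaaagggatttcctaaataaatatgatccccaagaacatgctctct
Cxcl2, chr5:90903649-90903898, plus strand: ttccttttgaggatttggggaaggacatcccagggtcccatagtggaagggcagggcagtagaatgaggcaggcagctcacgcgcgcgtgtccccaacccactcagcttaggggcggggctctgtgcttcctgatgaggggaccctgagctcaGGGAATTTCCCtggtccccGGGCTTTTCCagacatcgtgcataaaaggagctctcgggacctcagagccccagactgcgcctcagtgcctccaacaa
Ccl12, chr11:82101595-82101844, plus strand: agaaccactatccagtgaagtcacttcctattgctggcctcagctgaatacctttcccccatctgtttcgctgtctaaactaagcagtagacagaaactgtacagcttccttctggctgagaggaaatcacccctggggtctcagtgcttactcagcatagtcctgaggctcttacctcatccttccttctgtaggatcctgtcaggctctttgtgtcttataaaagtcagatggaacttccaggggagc
The Cxcl10 window held GAAAGTGAAA from 213 bases before the start, and GGGAAATTCC and an overlapping pair of NF-kB-type matches nearer to it. The Cxcl9 window held an overlapping pair of NF-kB-type matches from 130 bases before the start and no interferon-type match. The Cxcl2 window held an overlapping pair from 97 bases and a further match from 78 bases before the start. The Ccl12 window held neither motif. The interferon-type motif was found in 3.04% of 27025 promoters of this length and in 3 of 39 member promoters (7.69%), those of Ccl19, Cxcl10 and Cxcl14. The looser NF-kB-type motif was found in 45.4% of all these promoters and in 22 of the 39 (56.4%), and a gamma-activated site (TTC, any 3 bases and GAA) in 7.18% of all and in 4 of the 39 (10.3%). These matches describe letters and not bound sites.

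The libraries held 35026754 to 67333830 fragments in total. Levels are given as CPM, the count scaled to the library's total and corrected for its composition by TMM. Changes are log2 differences from day 0 of the same genotype. The TMM factors were 1.199 and 1.187 in the WT libraries of day 1 and between 0.9039 and 1.077 in the others. Without this correction the median change of all genes tested on day 1 was 0.099 in PKR KO spleens and 0.22 in WT spleens, against -0.002 and -0.04 with it. Eif2ak2 in the libraries labelled PKR KO had 12.2 and 14.9 CPM (day 0), 43.3 and 36.8 (day 1), 48 and 22.2 (day 2) and 15.9 and 18.9 (day 5). Eif2ak2 in WT libraries had 24.7 and 25.8 CPM (day 0), 101 and 96.7 (day 1), 32.9 and 43.3 (day 2) and 29.3 and 30.1 (day 5). The library labelled PKR KO day 2 replicate 1 thus lay above both WT libraries of its day, and the other libraries labelled PKR KO lay below theirs. B cell markers of the spleen (7 genes) summed to 939 to 1950 CPM and T cell markers (8 genes) to 59.6 to 395 CPM over the 16 libraries, with no gene of either list at 0.

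Cxcr4 led the family on day 0. Per kilobase of transcript, in the deposited FPKM, Cxcr4 had a median of 105 over the 4 day 0 libraries (range 83.7 to 107), and Cxcr4 and the ligand Ccl5 (49.7, range 37.5 to 60.6) did not overlap. Cxcr5 (34.4, range 29.9 to 40.2), Ccr7 (32.8, range 29.0 to 39.3) and Ccl6 (29.6, range 22.4 to 38.9) followed with ranges that overlapped each other and that of Ccl5. Ccl3, the next, had a median of 10.2 (range 8.2 to 14.8). An FPKM of 1 or more in both libraries of a group was reached by 16, 21, 16 and 17 members on days 0, 1, 2 and 5 in PKR KO spleens and by 16, 21, 16 and 16 members in WT spleens.

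Inflammatory ligands such as Cxcl10, Cxcl2 and Ccl2 were higher on day 1 in both genotypes. The stromal ligand Cxcl12 was higher on days 2 and 5, and Cxcl13 was higher on days 1 and 2. The receptors Cxcr4 and Ccr3 were already lower on day 1, and most receptors called on days 2 and 5 were lower. Changes were tested with edgeR's quasi-likelihood test over 18789 genes, with calls at a Benjamini-Hochberg adjusted p under 0.05. In PKR KO spleens 20 of 34 members were called on day 1, 12 higher and 8 lower, where 41.6% of all genes tested were called (22.1% higher and 19.5% lower). On day 2 there were 21 calls, 8 higher and 13 lower, with 49.3% of all genes called (26.2% higher and 23% lower). On day 5 there were 13, 2 higher and 11 lower, with 44.5% called (24.2% higher and 20.3% lower). In WT spleens 20 members were called on day 1, 15 higher and 5 lower, with 44.6% of all genes called (23.3% higher and 21.4% lower). Day 2 had 19 calls, 7 higher and 12 lower, with 45.2% called (23.9% higher and 21.3% lower). Day 5 had 9 calls, 2 higher and 7 lower, with 39.4% called (22.4% higher and 17% lower). Without the library labelled PKR KO day 2 replicate 1, 24 of 35 members were called on day 2 in PKR KO spleens, 9 higher and 15 lower. Ccl22 (adjusted p = 0.102) was the call lost and Cxcl10, Ccr6, Ccr9 and Ccl24 were the calls gained.

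The calls were also counted for ligands and receptors apart, and a difference between these classes was not tested. On day 1, 9 ligands were higher and 2 lower in PKR KO spleens, with 3 receptors higher and 6 lower, and in WT spleens 10 ligands were higher and 2 lower, with 5 receptors higher and 3 lower. On day 2 the ligands were 6 higher and 5 lower in PKR KO spleens and 5 higher and 4 lower in WT spleens, while the receptors were 2 higher and 8 lower in each genotype. On day 5, 8 receptors were lower in PKR KO spleens and 5 in WT spleens, with 1 higher in each. The median log2 change of the ligands, with genes at 0 in 1 of the groups set to their bound and genes at or under the floor in both left out, was 0.61, 0.16 and -0.29 on days 1, 2 and 5 in PKR KO spleens (over 18, 16 and 15 ligands). It was 1.18, 0.20 and 0.04 in WT spleens (over 18, 17 and 15 ligands). That of the 16 receptors was -0.51, -0.81 and -0.82 in PKR KO spleens and -0.07, -0.67 and -0.36 in WT spleens, where all genes tested had medians of -0.04 to 0.01. Ccl7, Ccl12 and Cxcl11 passed the filter only through their day 1 groups, so they had to differ there. Cxcl12 passed it only through its groups of days 2 and 5, so its higher calls there are a description. Ccl2, Cxcl13 and Cxcr1 reached the filter's cutoff in no library of day 0 and passed through treated libraries. Their higher calls against day 0 are a description as well. The counts and medians of members describe the genes that passed. In a bulk sample fewer cells of a type and less RNA in each cell cannot be told apart.

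**Figure D1:**
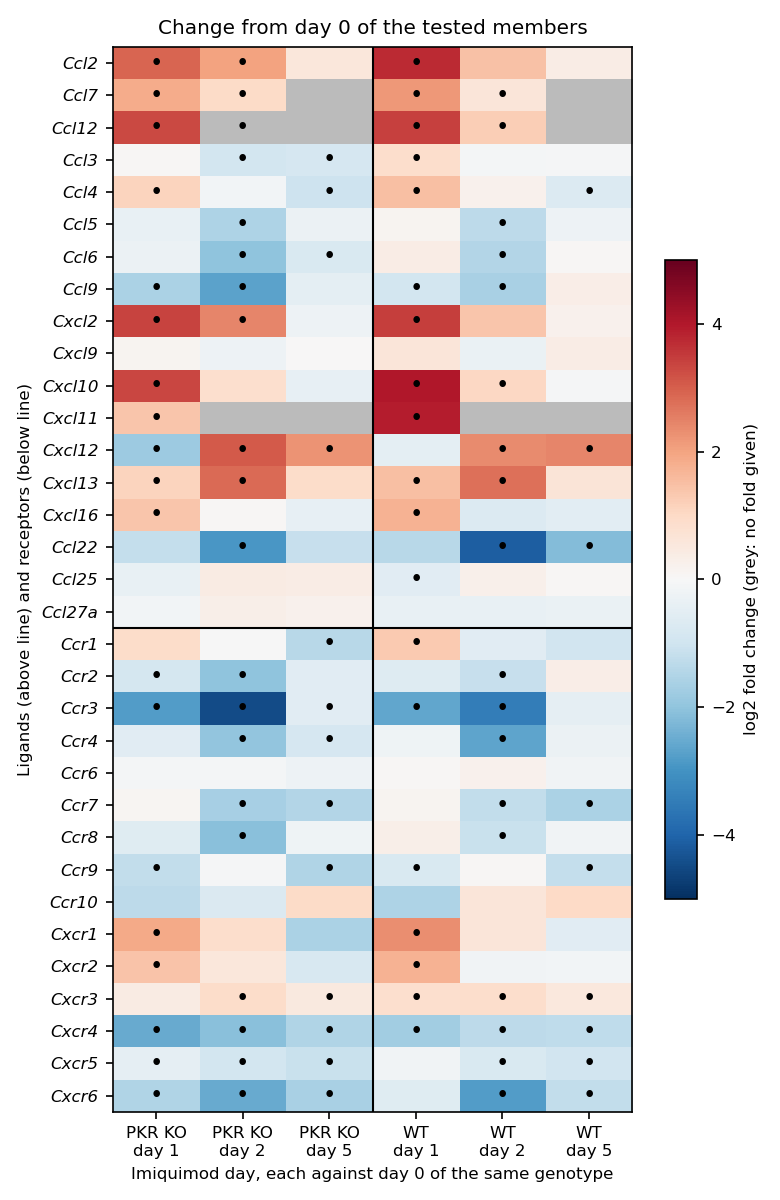
Log2 change from day 0 of each tested member named in the text (rows) in PKR KO and WT spleens on days 1, 2 and 5 (columns), with ligands above receptors. A dot marks a call at adjusted p under 0.05, groups at 0 counts are shown at their bound and grey cells have no fold. The 9 higher ligand calls of PKR KO spleens and the 10 of WT spleens on day 1 lie above the line, and the 8 lower receptor calls of each genotype on day 2 lie below it.

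Ccl2, a ligand of Ccr2 that draws monocytes out of the bone marrow, rose on day 1. No day 0 library of Ccl2 reached the filter's cutoff and it passed through treated libraries, so its higher calls are a description. Of the other Ccr2 ligands, Ccl7 and Ccl12 passed the filter through their day 1 groups, so their day 1 calls are a description too. Ccl8 had 7 counts in all libraries together. Ccl2 in PKR KO spleens had 0.103 and 0.226 CPM (day 0), 1.1 and 1.32 (day 1), 0.0854 and 1.19 (day 2) and 0.26 and 0.213 (day 5). Ccl2 in WT spleens had 0.197 and 0.154 CPM (day 0), 2.11 and 2.54 (day 1), 0.411 and 0.538 (day 2) and 0.152 and 0.293 (day 5). On day 1 both libraries of each genotype lay above day 0, and on day 2 the PKR KO libraries overlapped day 0. Ccl2 rose on day 1 by 2.90 (SE 0.71, adjusted p = 0.00466) in PKR KO spleens and by 3.73 (SE 0.64, adjusted p = 0.00035) in WT spleens. On day 2 it was higher by 2.00 (SE 0.77, adjusted p = 0.0444) in PKR KO spleens and its change was 1.46 (SE 0.75, adjusted p = 0.131) in WT spleens. Ccl2 missed the threshold on day 1 in PKR KO spleens without PKR KO day 0 replicate 1 (adjusted p = 0.0622). Over its alternatives Ccl2 had an adjusted p of 7.7e-09 to 0.0622 there. Ccl2 missed the threshold on day 2 in PKR KO spleens without PKR KO day 0 replicate 1, PKR KO day 0 replicate 2 or PKR KO day 2 replicate 2 (adjusted p = 0.236, 0.0727 and 0.419), or with limma-trend on log2(FPKM + 0.1), with limma-trend on log2(FPKM + 1), with summed transcripts or with the protein-coding transcript (adjusted p = 0.283, 0.187, 0.0555 and 0.0502). Over its alternatives Ccl2 had an adjusted p of 9.51e-05 to 0.419 there. Without PKR KO day 2 replicate 2 the log2 change turned to -0.88.

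Ccl12, a Ccr2 ligand of the mouse, had no count before treatment. Ccl12 in PKR KO spleens had 0 and 0 CPM (day 0), 0.742 and 0.611 (day 1), 0.0285 and 0.133 (day 2) and 0 and 0 (day 5). Ccl12 in WT spleens had 0 and 0 CPM (day 0), 0.729 and 0.453 (day 1), 0.0587 and 0.207 (day 2) and 0 and 0 (day 5). No count of it was seen on days 0 and 5 in either genotype. Against a floor of 3 counts per library, Ccl12 was at least 9.85-fold higher on day 1 in PKR KO spleens (adjusted p = 0.000142) and at least 10.6-fold higher in WT spleens (adjusted p = 0.000106). On day 2 it was at least 2.37-fold higher in WT spleens (adjusted p = 0.00719), and in PKR KO spleens its day 2 level was under the floor, so that its call there (adjusted p = 0.0397) has no fold. Ccl12 missed the threshold on day 2 in PKR KO spleens without PKR KO day 0 replicate 1, PKR KO day 0 replicate 2 or PKR KO day 2 replicate 2 (adjusted p = 0.132, 0.11 and 0.26), or with the FPKM filter, with limma-trend on log2(FPKM + 0.1) or with limma-trend on log2(FPKM + 1) (adjusted p = 0.0501, 0.115 and 0.331). Over its alternatives Ccl12 had an adjusted p of 0.0174 to 0.331 there. Ccl12 missed the threshold on day 2 in WT spleens without WT day 2 replicate 2 (adjusted p = 0.109), or with limma-trend on log2(FPKM + 1) (adjusted p = 0.128). Over its alternatives Ccl12 had an adjusted p of 0.0009 to 0.128 there. Its neighbour Ccl7 behaved likewise, with no count on days 0 and 5. On day 1 its level was at least 3.6-fold higher in PKR KO spleens (adjusted p = 0.00242) and at least 4.54-fold higher in WT spleens (adjusted p = 0.000966). On day 2 Ccl7 was at least 1.96-fold higher in PKR KO spleens (adjusted p = 0.0106) and at least 1.53-fold higher in WT spleens (adjusted p = 0.0233). Ccl7 missed the threshold on day 2 in PKR KO spleens without PKR KO day 0 replicate 1 or PKR KO day 2 replicate 2 (adjusted p = 0.0589 and 0.11). Over its alternatives Ccl7 had an adjusted p of 0.00687 to 0.11 there. Ccl7 missed the threshold on day 2 in WT spleens without WT day 0 replicate 1, WT day 0 replicate 2, WT day 2 replicate 1 or WT day 2 replicate 2 (adjusted p = 0.0665, 0.11, 0.0597 and 0.0701). Over its alternatives Ccl7 had an adjusted p of 0.0208 to 0.11 there.

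Cxcl10 is a ligand of Cxcr3 that interferons induce and that draws activated T cells and NK cells. Cxcl10 in PKR KO spleens had 1.05 and 1.03 CPM (day 0), 12.7 and 8.39 (day 1), 1.11 and 2.65 (day 2) and 0.651 and 0.913 (day 5). Cxcl10 in WT spleens had 0.922 and 0.939 CPM (day 0), 17.1 and 12.9 (day 1), 1.73 and 2.05 (day 2) and 0.735 and 1.05 (day 5). The day 1 libraries of both genotypes stood apart from all other days. Cxcl10 rose by 3.33 (SE 0.33, adjusted p = 7.73e-07) on day 1 in PKR KO spleens and by 4.0 (SE 0.33, adjusted p = 1.28e-07) in WT spleens, and these calls held under every alternative run. On day 2 its change was 0.86 (SE 0.35, adjusted p = 0.0519) in PKR KO spleens and 1.03 (SE 0.34, adjusted p = 0.022) in WT spleens. Cxcl10 missed the threshold on day 2 in WT spleens without WT day 0 replicate 1, WT day 0 replicate 2 or WT day 2 replicate 2 (adjusted p = 0.0812, 0.0914 and 0.131), or with limma-trend on log2(FPKM + 0.1) or with limma-trend on log2(FPKM + 1) (adjusted p = 0.0535 and 0.128). Over its alternatives Cxcl10 had an adjusted p of 0.000569 to 0.131 there. Without the library labelled PKR KO day 2 replicate 1 the day 2 change of the knockout was 1.26 (adjusted p = 0.00283). Averaged over genotypes, day 2 was lower than day 1 by 2.73 on the log2 scale for Cxcl10 (adjusted p = 8.58e-08). The transcript counted for Cxcl10 is a retained-intron model of the gene, and the choice of the protein-coding transcript was among the alternatives.

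Cxcl9, the neighbour of Cxcl10 and also an interferon-induced ligand of Cxcr3, was not called on any day against day 0. Cxcl9 in PKR KO spleens had 1.96 and 2.61 CPM (day 0), 1.91 and 3.05 (day 1), 1.42 and 2.39 (day 2) and 1.9 and 2.77 (day 5). Cxcl9 in WT spleens had 2.06 and 1.54 CPM (day 0), 3.11 and 2.29 (day 1), 1.03 and 1.78 (day 2) and 2.69 and 2 (day 5). The libraries of all days overlapped in PKR KO spleens. Its day 1 change was 0.13 (SE 0.32, adjusted p = 0.777) in PKR KO spleens and 0.59 (SE 0.32, adjusted p = 0.139) in WT spleens. Without composition scaling the WT value was called (0.85, adjusted p = 0.0321). Cxcl11, the other ligand of this cluster, was scarce, with 64 counts over all libraries. Cxcl11 passed the filter through its day 1 groups, so its day 1 calls are a description. It was at least 2.61-fold higher on day 1 in PKR KO spleens (adjusted p = 0.00517), and in WT spleens 42 counts on day 1 stood against 2 on day 0, a ratio of 16.7 with a 95% counting interval of 4.35 to 142 (adjusted p = 0.00197).

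Cxcl2 was the member of the neutrophil-attracting Cxcr2 ligands that could be tested. Cxcl2 in PKR KO spleens had 0.579 and 0.93 CPM (day 0), 9.55 and 5.9 (day 1), 1.42 and 6.55 (day 2) and 0.547 and 0.7 (day 5). Cxcl2 in WT spleens had 0.527 and 1.06 CPM (day 0), 10.1 and 7.93 (day 1), 1.38 and 2.88 (day 2) and 0.988 and 0.903 (day 5). Both genotypes were above day 0 on day 1 in both libraries, and the 2 PKR KO libraries of day 2 were far from each other. Cxcl2 rose by 3.37 (SE 0.68, adjusted p = 0.00302) on day 1 in PKR KO spleens and by 3.46 (SE 0.65, adjusted p = 0.00194) in WT spleens. On day 2 the rise was 2.42 (SE 0.69, adjusted p = 0.0153) in PKR KO spleens, and the change was 1.41 (SE 0.68, adjusted p = 0.123) in WT spleens. Cxcl2 missed the threshold on day 2 in PKR KO spleens without PKR KO day 0 replicate 1 or PKR KO day 2 replicate 2 (adjusted p = 0.0976 and 0.161), or in a fit of the compared groups alone (adjusted p = 0.155). Over its alternatives Cxcl2 had an adjusted p of 6.86e-05 to 0.161 there. Cxcl1, the other main neutrophil chemokine, was near its floor. Cxcl1 in PKR KO spleens had 0 and 0 CPM (day 0), 0 and 0.0407 (day 1), 0 and 0.0265 (day 2) and 0 and 0.0913 (day 5). Cxcl1 in WT spleens had 0 and 0.0154 CPM (day 0), 0 and 0.0389 (day 1), 0 and 0.0207 (day 2) and 0.0253 and 0 (day 5). Its 12 counts over 16 libraries allow no comparison, and Cxcl3, Cxcl5 and Cxcl15 had 13, 5 and 0 counts. Cxcl1, Cxcl2, Cxcl3 and Cxcl5 were all counted on retained-intron models.

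**Figure D2:**
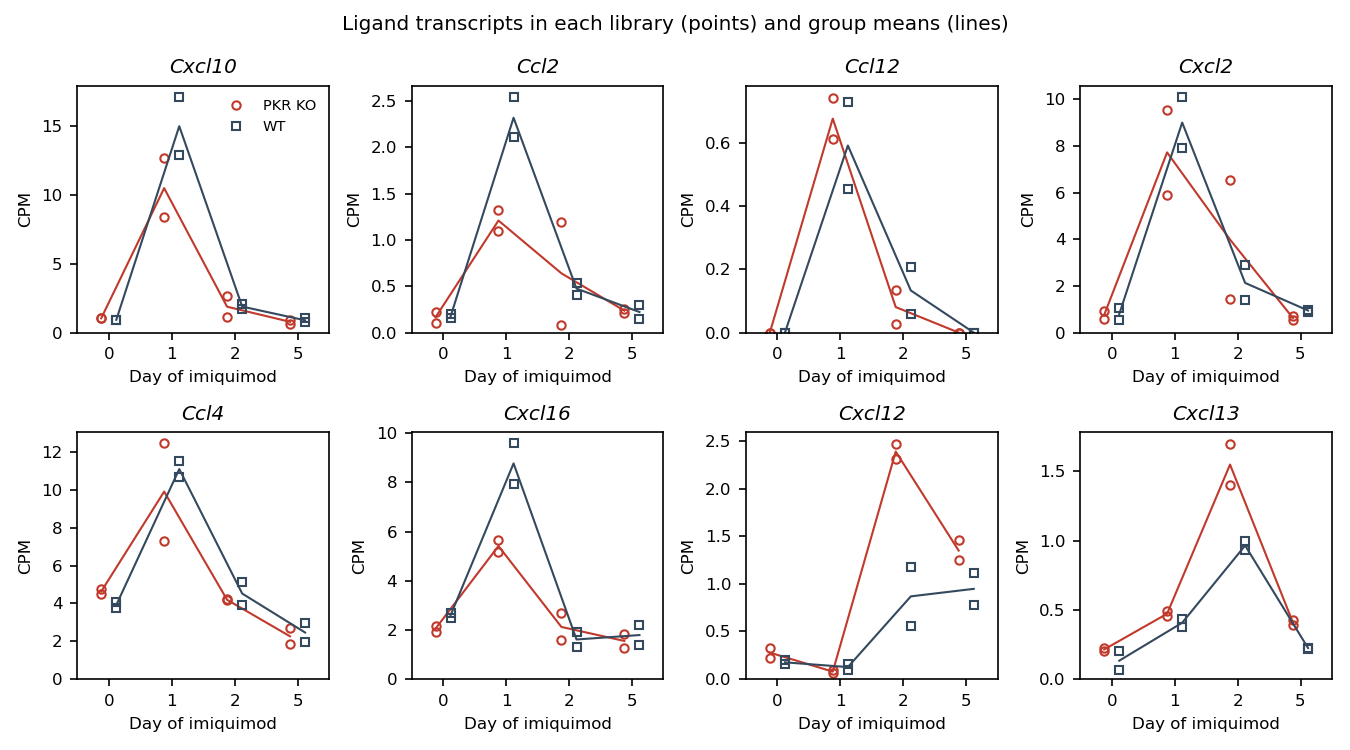
CPM (linear axis from 0) of 8 ligands, 1 to a panel, in each library (points) against day of imiquimod (0, 1, 2 and 5, equally spaced), with PKR KO as circles left of WT as squares and lines through the group means. The Cxcl10 points reach 12.7 and 8.39 CPM on day 1 in PKR KO spleens and 17.1 and 12.9 CPM in WT spleens, and Cxcl13 is highest on day 2 in both genotypes.

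The ligands Ccl3, Ccl4, Ccl5, Ccl6 and Ccl9 did not move as a group. Ccl3 and Ccl4 are made by activated macrophages, T cells and NK cells. Ccl4 in PKR KO spleens had 4.5 and 4.75 CPM (day 0), 12.5 and 7.31 (day 1), 4.21 and 4.17 (day 2) and 1.85 and 2.68 (day 5). Ccl4 in WT spleens had 4.06 and 3.77 CPM (day 0), 11.5 and 10.7 (day 1), 5.14 and 3.91 (day 2) and 2.94 and 1.98 (day 5). On day 1 all 4 libraries lay above day 0, and on day 5 all 4 lay below it. Ccl4 rose on day 1 by 1.10 (SE 0.24, adjusted p = 0.00119) in PKR KO spleens and by 1.5 (SE 0.24, adjusted p = 6.18e-05) in WT spleens, and on day 5 it fell by 1.04 (SE 0.26, adjusted p = 0.00336) in PKR KO spleens and by 0.67 (SE 0.25, adjusted p = 0.0433) in WT spleens. Ccl4 missed the threshold on day 1 in PKR KO spleens without PKR KO day 1 replicate 1 (adjusted p = 0.0572). Over its alternatives Ccl4 had an adjusted p of 6.45e-07 to 0.0572 there. Ccl4 missed the threshold on day 5 in PKR KO spleens without PKR KO day 5 replicate 1 (adjusted p = 0.0746). Over its alternatives Ccl4 had an adjusted p of 8.42e-06 to 0.0746 there. Ccl4 missed the threshold on day 5 in WT spleens without WT day 0 replicate 1, WT day 0 replicate 2 or WT day 5 replicate 2 (adjusted p = 0.144, 0.0882 and 0.311), or with the FPKM filter or with summed transcripts (adjusted p = 0.0543 and 0.0742). Over its alternatives Ccl4 had an adjusted p of 0.00587 to 0.311 there. Ccl3 rose by 0.87 (SE 0.24, adjusted p = 0.00757) on day 1 in WT spleens and changed by 0.06 (SE 0.24, adjusted p = 0.867) in PKR KO spleens, where it fell by 0.92 (SE 0.25, adjusted p = 0.00586) on day 2 and by 0.83 (SE 0.25, adjusted p = 0.0121) on day 5. Ccl3 missed the threshold on day 1 in WT spleens without WT day 0 replicate 2 (adjusted p = 0.076). Over its alternatives Ccl3 had an adjusted p of 3.96e-06 to 0.076 there. Ccl3 missed the threshold on day 2 in PKR KO spleens without PKR KO day 0 replicate 2 (adjusted p = 0.0863). Over its alternatives Ccl3 had an adjusted p of 7.75e-07 to 0.0863 there. Ccl3 missed the threshold on day 5 in PKR KO spleens without PKR KO day 0 replicate 2, PKR KO day 5 replicate 1 or PKR KO day 5 replicate 2 (adjusted p = 0.148, 0.0685 and 0.0694). Over its alternatives Ccl3 had an adjusted p of 1.96e-05 to 0.148 there.

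Ccl5, Ccl6 and Ccl9 were lowest on day 2. Ccl5 is made by T cells and NK cells, and Ccl6 and Ccl9 are ligands of Ccr1 in rodents that myeloid cells make. Ccl5 in PKR KO spleens had 30.8 and 23.7 CPM (day 0), 21.8 and 20 (day 1), 8.91 and 10 (day 2) and 22.9 and 21.8 (day 5). Ccl5 in WT spleens had 31.4 and 20.7 CPM (day 0), 29.5 and 27.2 (day 1), 11.6 and 9.48 (day 2) and 24.2 and 19.3 (day 5). In both genotypes the day 2 libraries lay below those of the other days. Ccl6 in PKR KO spleens had 46.6 and 57.7 CPM (day 0), 44.5 and 41.6 (day 1), 11.3 and 14.3 (day 2) and 30.9 and 30.2 (day 5). Ccl6 in WT spleens had 39.1 and 33.5 CPM (day 0), 57.9 and 35.6 (day 1), 11.7 and 14.7 (day 2) and 39.6 and 35.3 (day 5). The day 2 libraries were again the lowest. Ccl9 in PKR KO spleens had 14.8 and 18 CPM (day 0), 4.6 and 6.21 (day 1), 2.96 and 2.15 (day 2) and 12.1 and 11.2 (day 5). Ccl9 in WT spleens had 12.8 and 11 CPM (day 0), 7.89 and 4.72 (day 1), 3.93 and 3.75 (day 2) and 15.1 and 14.7 (day 5). For Ccl9 the libraries of days 1 and 2 lay below those of days 0 and 5.

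On day 2 Ccl5 fell by 1.53 (SE 0.19, adjusted p = 3.23e-06) in PKR KO spleens and by 1.30 (SE 0.18, adjusted p = 1.92e-05) in WT spleens. Ccl6 fell by 2.03 (SE 0.20, adjusted p = 1.08e-06) in PKR KO spleens and by 1.46 (SE 0.20, adjusted p = 3.12e-05) in WT spleens on that day. Ccl9 fell by 2.68 (SE 0.23, adjusted p = 4.54e-08) in PKR KO spleens and by 1.63 (SE 0.22, adjusted p = 1.06e-05) in WT spleens. Ccl9 was already lower on day 1, by 1.60 (SE 0.21, adjusted p = 1.32e-05) in PKR KO spleens and by 0.92 (SE 0.21, adjusted p = 0.00171) in WT spleens. Of the day 5 values, Ccl6 in PKR KO spleens was called, lower by 0.77 (SE 0.20, adjusted p = 0.00469). Ccl6 missed the threshold on day 5 in PKR KO spleens without PKR KO day 0 replicate 2 (adjusted p = 0.0613). Over its alternatives Ccl6 had an adjusted p of 9.12e-08 to 0.0613 there. Averaged over genotypes, day 5 was higher than day 2 by 1.14 for Ccl5, 1.38 for Ccl6 and 2.07 for Ccl9 on the log2 scale (adjusted p = 1.35e-06, 1.2e-06 and 7.48e-09). T cell markers fell together with Ccl5: all 8 were called lower on day 2 in both genotypes, and their summed level was 372 and 391 CPM (day 0), 187 and 168 (day 1), 59.6 and 98.4 (day 2) and 140 and 182 (day 5) in PKR KO spleens, against 395 and 345 CPM (day 0), 227 and 254 (day 1), 82.2 and 89.6 (day 2) and 162 and 147 (day 5) in WT spleens. The NK cell markers were called lower in 6 of 6 genes on day 2 in PKR KO spleens and in 5 of 6 in WT spleens, with a summed level of 84 and 78.2 CPM (day 0), 44 and 38.6 (day 1), 30.2 and 30 (day 2) and 36.2 and 38.5 (day 5) in PKR KO spleens, against 74.3 and 55.5 CPM (day 0), 51 and 41.6 (day 1), 32.1 and 30.9 (day 2) and 42.3 and 33.6 (day 5) in WT spleens. The part of these cells in the Ccl5 values was not tested.

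Of the stromal ligands that organise the white pulp and the bone marrow, Cxcl13 and Cxcl12 rose on day 2. Cxcl13 in PKR KO spleens had 0.227 and 0.201 CPM (day 0), 0.455 and 0.489 (day 1), 1.4 and 1.7 (day 2) and 0.391 and 0.426 (day 5). Cxcl13 in WT spleens had 0.0658 and 0.2 CPM (day 0), 0.437 and 0.376 (day 1), 0.998 and 0.932 (day 2) and 0.228 and 0.22 (day 5). The day 2 libraries lay above all others in both genotypes. Cxcl13, which gathers B cells in follicles, rose by 2.83 (SE 0.39, adjusted p = 8.33e-06) on day 2 in PKR KO spleens and by 2.74 (SE 0.41, adjusted p = 2.61e-05) in WT spleens. On day 1 it was higher by 1.12 (SE 0.42, adjusted p = 0.04) in PKR KO spleens and by 1.5 (SE 0.42, adjusted p = 0.00798) in WT spleens. No day 0 library of Cxcl13 reached the filter's cutoff and it passed through treated libraries, so these rises are a description. Cxcl13 missed the threshold on day 1 in PKR KO spleens without PKR KO day 0 replicate 1, PKR KO day 0 replicate 2, PKR KO day 1 replicate 1 or PKR KO day 1 replicate 2 (adjusted p = 0.108, 0.147, 0.098 and 0.158), or without a filter on low counts, with DESeq2, with summed transcripts or in a fit of the compared groups alone (adjusted p = 0.11, 0.101, 0.0629 and 0.0518). Over its alternatives Cxcl13 had an adjusted p of 0.0261 to 0.158 there. Cxcl13 missed the threshold on day 1 in WT spleens without WT day 0 replicate 1 (adjusted p = 0.0868). Over its alternatives Cxcl13 had an adjusted p of 0.00198 to 0.0868 there. From day 2 to day 5 Cxcl13 fell by 2.00 on the log2 scale, averaged over genotypes (SE 0.27, adjusted p = 6.63e-06).

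Cxcl12, which holds plasma cells and blood progenitors in their niches through Cxcr4, stayed high to day 5. Cxcl12 in PKR KO spleens had 0.331 and 0.226 CPM (day 0), 0.0957 and 0.0611 (day 1), 2.31 and 2.47 (day 2) and 1.46 and 1.25 (day 5). Cxcl12 in WT spleens had 0.197 and 0.154 CPM (day 0), 0.162 and 0.0907 (day 1), 0.558 and 1.18 (day 2) and 1.11 and 0.781 (day 5). Days 2 and 5 lay above days 0 and 1 in every library of both genotypes. Cxcl12 rose by 3.07 (SE 0.39, adjusted p = 3.67e-06) on day 2 and by 2.26 (SE 0.40, adjusted p = 0.000186) on day 5 in PKR KO spleens, and by 2.35 (SE 0.43, adjusted p = 0.000225) and 2.43 (SE 0.43, adjusted p = 0.000217) in WT spleens. These calls held under every alternative that tested Cxcl12, which limma-trend and the FPKM filter did not. Cxcl12 passed the filter on low counts only through its groups of days 2 and 5, so its rises on those days are a description. On day 1 it fell by 1.83 (SE 0.60, adjusted p = 0.0205) in PKR KO spleens and changed by -0.48 (SE 0.53, adjusted p = 0.482) in WT spleens. Cxcl12 missed the threshold on day 1 in PKR KO spleens without PKR KO day 0 replicate 1 or PKR KO day 1 replicate 2 (adjusted p = 0.131 and 0.126). Over its alternatives Cxcl12 had an adjusted p of 0.00095 to 0.131 there. Day 2 exceeded day 1 by 3.86 on the log2 scale, averaged over genotypes (SE 0.32, adjusted p = 6.04e-08). Of 9 markers of stromal cells 7 were tested, and on day 2 6 were called higher and 1 lower in PKR KO spleens and 5 higher and 1 lower in WT spleens. On day 5, 4 were higher and 1 lower in each genotype. Their summed level was 290 and 349 CPM (day 0), 139 and 137 (day 1), 96.5 and 91.6 (day 2) and 85 and 105 (day 5) in PKR KO spleens, against 281 and 285 CPM (day 0), 186 and 223 (day 1), 67.7 and 90.5 (day 2) and 115 and 81.4 (day 5) in WT spleens, and it includes Cr2, which B cells share. On day 2 this sum lay below day 0 although most tested markers were called higher, so it does not stand for each marker. Pdpn, a marker of reticular fibroblasts, and Lum had no count in either library of day 2 in both genotypes. The part of stromal cells in the Cxcl12 and Cxcl13 values was not tested.

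Ccl19 and Ccl21a, the ligands of Ccr7 in the T cell zone, were close to the limit of counting. Ccl19 in PKR KO spleens had 0.0207 and 0 CPM (day 0), 0 and 0.102 (day 1), 0.199 and 0.0265 (day 2) and 0 and 0.0304 (day 5). Ccl19 in WT spleens had 0.0439 and 0.0616 CPM (day 0), 0.081 and 0.0648 (day 1), 0.0587 and 0.0207 (day 2) and 0.0507 and 0 (day 5). Ccl21a in PKR KO spleens had 0.186 and 0.126 CPM (day 0), 0 and 0 (day 1), 0.114 and 0 (day 2) and 0.0781 and 0.0913 (day 5). Ccl21a in WT spleens had 0.132 and 0.154 CPM (day 0), 0.0324 and 0.013 (day 1), 0.0587 and 0 (day 2) and 0.0253 and 0 (day 5). Neither passed the filter, with 36 and 46 counts over all libraries. Ccl21a was at least 2.35-fold lower on day 1 in PKR KO spleens, where it had no count. In WT spleens 3 counts on day 1, 2 on day 2 and 1 on day 5 stood against 16 on day 0, which are ratios of 0.149 (95% counting interval 0.0279 to 0.521), 0.168 (0.0187 to 0.713) and 0.0859 (0.00205 to 0.553). Ccl21a has near-identical copies, Ccl21b and Ccl21d, and the split of fragments among them is uncertain. The same holds for Ccl27a and Ccl27b.

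Ccl22, which dendritic cells make and which acts on Ccr4, fell on day 2. Ccl22 in PKR KO spleens had 0.496 and 0.578 CPM (day 0), 0.335 and 0.142 (day 1), 0 and 0.133 (day 2) and 0.313 and 0.152 (day 5). Ccl22 in WT spleens had 0.943 and 0.462 CPM (day 0), 0.324 and 0.207 (day 1), 0.088 and 0 (day 2) and 0.279 and 0.0244 (day 5). All 4 libraries of day 2 were below all day 0 libraries. Ccl22 fell by 2.92 (SE 0.97, adjusted p = 0.0198) on day 2 in PKR KO spleens. In WT spleens 3 counts on day 2 stood against 73 on day 0, a ratio of 0.0551 with a counting interval of 0.0111 to 0.168 (adjusted p = 0.0036), and on day 5 it fell by 2.18 (SE 0.79, adjusted p = 0.0383). Ccl22 missed the threshold on day 2 in PKR KO spleens without PKR KO day 0 replicate 1, PKR KO day 0 replicate 2 or the library labelled PKR KO day 2 replicate 1 (adjusted p = 0.051, 0.0736 and 0.102). Over its alternatives Ccl22 had an adjusted p of 0.000131 to 0.102 there. Ccl22 missed the threshold on day 2 in WT spleens without WT day 2 replicate 2 (adjusted p = 0.0579). Over its alternatives Ccl22 had an adjusted p of 1.72e-07 to 0.0579 there. Ccl22 missed the threshold on day 5 in WT spleens without WT day 0 replicate 1 or WT day 5 replicate 2 (adjusted p = 0.208 and 0.271), or with summed transcripts (adjusted p = 0.0768). Over its alternatives Ccl22 had an adjusted p of 0.000934 to 0.271 there. Of 7 markers of conventional dendritic cells 6 were called lower on days 1 and 2 in both genotypes, with a summed level of 99.1 and 92.7 CPM (day 0), 76.7 and 101 (day 1), 62.6 and 62.1 (day 2) and 133 and 143 (day 5) in PKR KO spleens, against 97.7 and 104 CPM (day 0), 101 and 64.2 (day 1), 60.8 and 61.9 (day 2) and 149 and 140 (day 5) in WT spleens. Their part in the Ccl22 values was not tested. Ccl24, an eosinophil-attracting ligand that did not pass the filter, had 1, 2 and 1 counts on days 1, 2 and 5 in PKR KO spleens against 21 on day 0, with ratios of 0.0462, 0.115 and 0.059, and 1 count on days 2 and 5 in WT spleens against 23 on day 0, with ratios of 0.0583 and 0.0597.

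Cxcl16, a membrane-bound ligand of Cxcr6, rose on day 1 in both genotypes. Cxcl16 in PKR KO spleens had 2.17 and 1.93 CPM (day 0), 5.65 and 5.17 (day 1), 1.57 and 2.68 (day 2) and 1.82 and 1.28 (day 5). Cxcl16 in WT spleens had 2.5 and 2.7 CPM (day 0), 7.92 and 9.61 (day 1), 1.32 and 1.9 (day 2) and 2.2 and 1.37 (day 5). The day 1 libraries were the highest in both genotypes. Cxcl16 rose by 1.39 (SE 0.27, adjusted p = 0.000391) on day 1 in PKR KO spleens and by 1.75 (SE 0.25, adjusted p = 2.85e-05) in WT spleens, and fell by 1.88 from day 1 to day 2 on the log2 scale when averaged over genotypes (adjusted p = 5.21e-07). On day 2 its change from day 0 was 0.05 (SE 0.28, adjusted p = 0.897) in PKR KO spleens and -0.67 (SE 0.28, adjusted p = 0.0563) in WT spleens, where 8 of the alternatives called it lower (-0.97 to -0.68). Ccl25 is the ligand of Ccr9, and the transcript counted for it is a retained-intron model. Ccl25 in PKR KO spleens had 2.52 and 3.39 CPM (day 0), 2.27 and 2.32 (day 1), 3.36 and 4.38 (day 2) and 4.12 and 3.47 (day 5). Ccl25 in WT spleens had 2.39 and 2.9 CPM (day 0), 1.6 and 1.93 (day 1), 3.4 and 3.02 (day 2) and 2.99 and 2.49 (day 5). The WT libraries of day 1 were the lowest. Ccl25 fell by 0.58 (SE 0.22, adjusted p = 0.0397) on day 1 in WT spleens, and its other comparisons with day 0 were not called. With the protein-coding transcript it was called on day 5 in PKR KO spleens (0.70, adjusted p = 0.0278), and with summed transcripts on days 2 and 5 there (0.43 and 0.55, adjusted p = 0.0412 and 0.0142). Ccl25 missed the threshold on day 1 in WT spleens without WT day 0 replicate 2, WT day 1 replicate 1 or WT day 1 replicate 2 (adjusted p = 0.227, 0.2 and 0.0623), or without a filter on low counts, without composition scaling, with limma-trend on log2(FPKM + 0.1), with limma-trend on log2(FPKM + 1), with the protein-coding transcript or in a fit of the compared groups alone (adjusted p = 0.0624, 0.253, 0.246, 0.286, 0.0815 and 0.0808). Over its alternatives Ccl25 had an adjusted p of 0.0248 to 0.286 there. Ccl27a was not called on any day, with changes of -0.38 to 0.27. The remaining ligands that were not tested, among them Ccl1, Ccl17, Ccl20, Ccl26, Ccl28 and Cxcl17, had 1 to 26 counts over all libraries.

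Cxcr1 and Cxcr2, the receptors of neutrophils, rose on day 1. Cxcr2 brings neutrophils toward Cxcl1 and Cxcl2. Cxcr2 in PKR KO spleens had 16.7 and 23.8 CPM (day 0), 58.8 and 50.2 (day 1), 20.4 and 40 (day 2) and 8.65 and 14.7 (day 5). Cxcr2 in WT spleens had 15.6 and 15.7 CPM (day 0), 70.6 and 33.9 (day 1), 10.8 and 16.6 (day 2) and 14.5 and 13.7 (day 5). On day 1 each genotype lay above its day 0, with the WT libraries far from each other. Cxcr2 rose on day 1 by 1.43 (SE 0.44, adjusted p = 0.027) in PKR KO spleens and by 1.74 (SE 0.44, adjusted p = 0.0108) in WT spleens. Its neighbour Cxcr1 rose by 1.89 (SE 0.59, adjusted p = 0.0155) in PKR KO spleens and by 2.31 (SE 0.59, adjusted p = 0.00429) in WT spleens. No day 0 library of Cxcr1 reached the filter's cutoff and it passed through treated libraries, so its day 1 calls are a description. Cxcr2 missed the threshold on day 1 in PKR KO spleens without PKR KO day 0 replicate 1, PKR KO day 0 replicate 2, PKR KO day 1 replicate 1 or PKR KO day 1 replicate 2 (adjusted p = 0.148, 0.0588, 0.112 and 0.0696), or without a filter on low counts (adjusted p = 0.059). Over its alternatives Cxcr2 had an adjusted p of 2.38e-07 to 0.148 there. Cxcr2 missed the threshold on day 1 in WT spleens without WT day 0 replicate 1, WT day 0 replicate 2 or WT day 1 replicate 1 (adjusted p = 0.0608, 0.0714 and 0.0715). Over its alternatives Cxcr2 had an adjusted p of 0.000382 to 0.0715 there. Cxcr1 missed the threshold on day 1 in PKR KO spleens without PKR KO day 0 replicate 1, PKR KO day 0 replicate 2, PKR KO day 1 replicate 1 or PKR KO day 1 replicate 2 (adjusted p = 0.0752, 0.0904, 0.0509 and 0.0618). Over its alternatives Cxcr1 had an adjusted p of 0.000894 to 0.0904 there. Cxcr1 missed the threshold on day 1 in WT spleens without WT day 0 replicate 2 (adjusted p = 0.0674). Over its alternatives Cxcr1 had an adjusted p of 4.86e-05 to 0.0674 there. Neutrophil markers, 10 genes all tested, were called higher in 3 and lower in 0 on day 1 in PKR KO spleens and higher in 0 and lower in 3 in WT spleens. On day 2 they were lower in 3 in PKR KO spleens and in 7 in WT spleens. Their summed level was 820 and 685 CPM (day 0), 1150 and 1330 (day 1), 224 and 573 (day 2) and 672 and 925 (day 5) in PKR KO spleens, against 682 and 1210 CPM (day 0), 1240 and 582 (day 1), 194 and 302 (day 2) and 843 and 969 (day 5) in WT spleens. None was at 0, and their part in the Cxcr2 values was not tested.

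Ccr1, a receptor of Ccl3 and Ccl5 on myeloid cells, also had its highest levels on day 1. Ccr1 in PKR KO spleens had 12.8 and 19 CPM (day 0), 32.1 and 28.7 (day 1), 10.5 and 20.9 (day 2) and 5.5 and 6.73 (day 5). Ccr1 in WT spleens had 14.3 and 12.3 CPM (day 0), 44.2 and 21.2 (day 1), 6.72 and 11 (day 2) and 6.87 and 6.93 (day 5). The day 1 and day 0 libraries did not overlap, and on day 5 all libraries were below day 0. Ccr1 rose by 1.30 (SE 0.41, adjusted p = 0.0274) on day 1 in WT spleens and changed by 0.93 (SE 0.41, adjusted p = 0.095) in PKR KO spleens. On day 5 it fell by 1.38 (SE 0.43, adjusted p = 0.0269) in PKR KO spleens and changed by -0.95 (SE 0.42, adjusted p = 0.107) in WT spleens. Ccr1 missed the threshold on day 1 in WT spleens without WT day 0 replicate 1, WT day 0 replicate 2 or WT day 1 replicate 1 (adjusted p = 0.0861, 0.156 and 0.19), or without a filter on low counts or in a fit of the compared groups alone (adjusted p = 0.0581 and 0.0638). Over its alternatives Ccr1 had an adjusted p of 0.00518 to 0.19 there. Ccr1 missed the threshold on day 5 in PKR KO spleens without PKR KO day 0 replicate 2, PKR KO day 5 replicate 1 or PKR KO day 5 replicate 2 (adjusted p = 0.146, 0.152 and 0.0748), or without a filter on low counts (adjusted p = 0.0559). Over its alternatives Ccr1 had an adjusted p of 1.26e-12 to 0.152 there.

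Ccr2, by which monocytes leave the bone marrow, was lower on day 2 in both genotypes. Ccr2 in PKR KO spleens had 46.7 and 60 CPM (day 0), 21.9 and 35.6 (day 1), 15.7 and 10.5 (day 2) and 33.2 and 39.6 (day 5). Ccr2 in WT spleens had 37.7 and 37.1 CPM (day 0), 30.8 and 17.1 (day 1), 17.6 and 15.9 (day 2) and 50.9 and 43.3 (day 5). Day 2 was the lowest in PKR KO spleens, and in WT spleens days 1 and 2 overlapped. Ccr2 fell by 0.89 (SE 0.30, adjusted p = 0.0358) on day 1 and 2.03 (SE 0.31, adjusted p = 0.000323) on day 2 in PKR KO spleens, and by 1.16 (SE 0.30, adjusted p = 0.01) on day 2 in WT spleens, where its day 1 change was -0.64 (SE 0.30, adjusted p = 0.104). Without WT day 1 replicate 1 that change was called (-1.14, adjusted p = 0.0139). Ccr2 missed the threshold on day 1 in PKR KO spleens without PKR KO day 0 replicate 2 or PKR KO day 1 replicate 1 (adjusted p = 0.192 and 0.202), or without a filter on low counts, without composition scaling, with limma-trend on log2(FPKM + 0.1) or with a replicate block (adjusted p = 0.0746, 0.0839, 0.057 and 0.053). Over its alternatives Ccr2 had an adjusted p of 0.00144 to 0.202 there. Ccr2 missed the threshold on day 2 in WT spleens without WT day 2 replicate 2 (adjusted p = 0.0786). Over its alternatives Ccr2 had an adjusted p of 2.34e-05 to 0.0786 there. Averaged over genotypes it was higher on day 5 than on day 2 by 1.49 on the log2 scale (adjusted p = 0.000228). Of 7 monocyte markers, 1 was called higher and 3 lower on day 2 in PKR KO spleens and 2 higher and 1 lower in WT spleens, with a summed level of 276 and 252 CPM (day 0), 228 and 330 (day 1), 205 and 208 (day 2) and 363 and 425 (day 5) in PKR KO spleens, against 242 and 314 CPM (day 0), 377 and 253 (day 1), 240 and 241 (day 2) and 483 and 427 (day 5) in WT spleens. Their part in the Ccr2 values was not tested.

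Ccr3, the eotaxin receptor of eosinophils and basophils, had the largest fitted fall of the tested members on day 2 in PKR KO spleens and the largest after Ccl22 in WT spleens. Ccr3 in PKR KO spleens had 11.1 and 11.6 CPM (day 0), 1.1 and 2.18 (day 1), 0.712 and 0.318 (day 2) and 7.55 and 7.7 (day 5). Ccr3 in WT spleens had 8.71 and 10.4 CPM (day 0), 1.68 and 1.5 (day 1), 0.91 and 0.849 (day 2) and 7.35 and 6.81 (day 5). Days 1 and 2 were below days 0 and 5 in every library. Ccr3 fell by 2.77 (SE 0.26, adjusted p = 1.69e-07) on day 1 and 4.47 (SE 0.30, adjusted p = 1.95e-09) on day 2 in PKR KO spleens, and by 2.58 (SE 0.25, adjusted p = 3.25e-07) and 3.44 (SE 0.28, adjusted p = 1.9e-08) in WT spleens. On day 5 it was lower by 0.57 (SE 0.23, adjusted p = 0.0494) in PKR KO spleens and its change was -0.43 (SE 0.23, adjusted p = 0.142) in WT spleens. Ccr3 missed the threshold on day 5 in PKR KO spleens without PKR KO day 0 replicate 1, PKR KO day 0 replicate 2, PKR KO day 5 replicate 1 or PKR KO day 5 replicate 2 (adjusted p = 0.119, 0.172, 0.193 and 0.146), or with the FPKM filter, with the size factors of DESeq2, with limma-trend on log2(FPKM + 0.1), with summed transcripts or with a replicate block (adjusted p = 0.063, 0.055, 0.112, 0.0989 and 0.0543). Over its alternatives Ccr3 had an adjusted p of 0.00424 to 0.193 there. From day 2 to day 5 Ccr3 rose by 3.45 on the log2 scale, averaged over genotypes (SE 0.21, adjusted p = 2.32e-10). Of 8 markers of basophils, mast cells and eosinophils all 8 were called lower on day 2 in both genotypes, and 3 on day 1 in PKR KO spleens and 5 in WT spleens. Their summed level was 20.8 and 16.8 CPM (day 0), 5.96 and 13.6 (day 1), 2.71 and 4.56 (day 2) and 26.3 and 23.3 (day 5) in PKR KO spleens, against 16.1 and 32.3 CPM (day 0), 9.04 and 5.8 (day 1), 6.37 and 4.12 (day 2) and 18 and 22.4 (day 5) in WT spleens. Of these markers Ear6 had no count in the library labelled PKR KO day 2 replicate 1, and the part of these cells in the Ccr3 values was not tested.

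**Figure D3:**
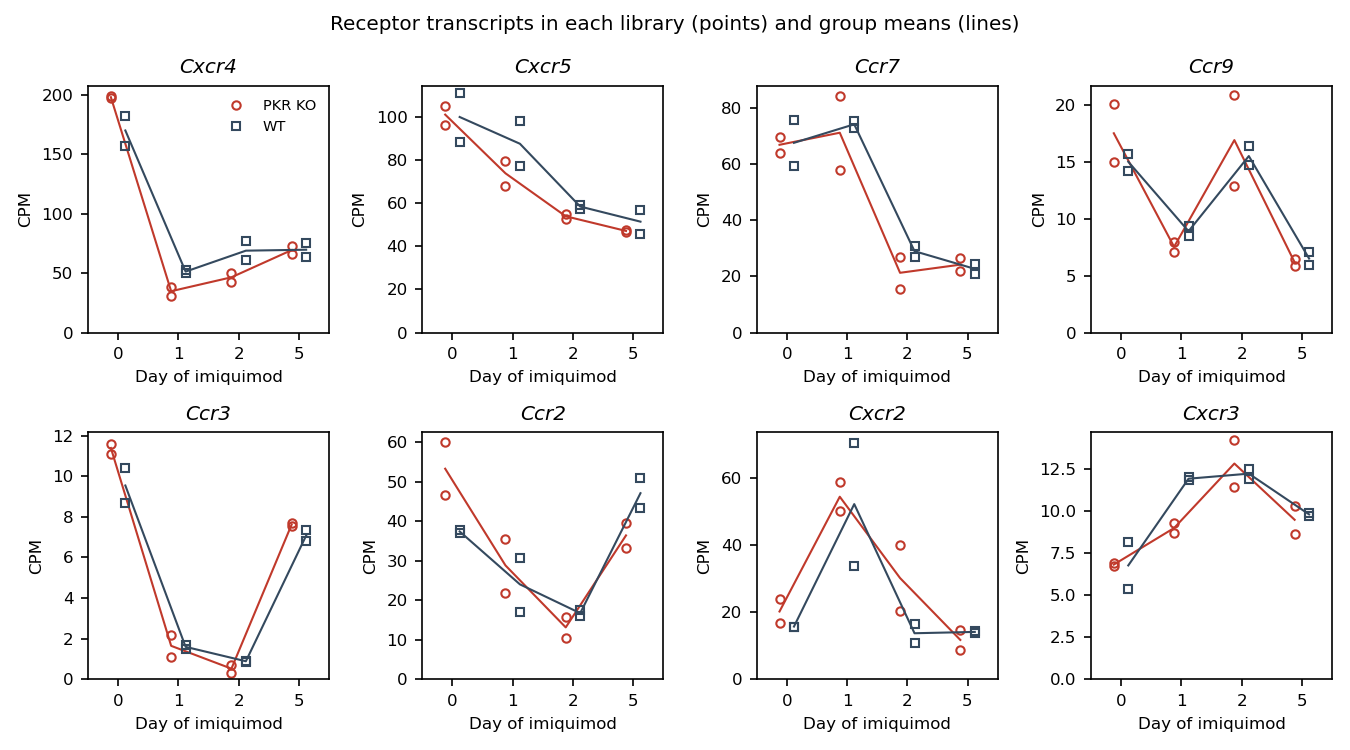
CPM (linear axis from 0) of 8 receptors, 1 to a panel, in each library (points) against day of imiquimod (0, 1, 2 and 5, equally spaced), with PKR KO as circles left of WT as squares and lines through the group means. Cxcr4 stands at 157 to 199 CPM on day 0 and at 31.0 to 76.7 CPM on the treated days in both genotypes, and Ccr3 is lowest on day 2, at 0.318 to 0.91 CPM.

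Cxcr4, the receptor of Cxcl12 on nearly all leukocytes and the most abundant member per length on day 0, was lower on every treated day. Cxcr4 in PKR KO spleens had 197 and 199 CPM (day 0), 38.7 and 31 (day 1), 42.5 and 50.5 (day 2) and 73 and 65.7 (day 5). Cxcr4 in WT spleens had 182 and 157 CPM (day 0), 49.7 and 53 (day 1), 76.7 and 61.2 (day 2) and 75.5 and 63.8 (day 5). No treated library reached any library of day 0. Cxcr4 fell by 2.51 (SE 0.15, adjusted p = 1.59e-09), 2.09 (SE 0.15, adjusted p = 3.04e-09) and 1.51 (SE 0.14, adjusted p = 1.51e-07) on days 1, 2 and 5 in PKR KO spleens. In WT spleens it fell by 1.72 (SE 0.14, adjusted p = 8.58e-08), 1.30 (SE 0.14, adjusted p = 9.01e-07) and 1.28 (SE 0.14, adjusted p = 1.54e-06). All 6 calls held under every alternative run. Its ligand Cxcl12 was higher on days 2 and 5.

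Cxcr5 and Ccr7, by which B cells and naive T cells find follicles and T cell zones, were lower on days 2 and 5 in both genotypes. Cxcr5 in PKR KO spleens had 105 and 96.2 CPM (day 0), 79.6 and 68 (day 1), 55.1 and 52.7 (day 2) and 46.5 and 47.7 (day 5). Cxcr5 in WT spleens had 111 and 88.4 CPM (day 0), 77 and 98 (day 1), 59.3 and 57.4 (day 2) and 57 and 45.8 (day 5). Days 2 and 5 were below day 0 in every library. Cxcr5 fell by 0.45 (SE 0.14, adjusted p = 0.0164), 0.90 (SE 0.14, adjusted p = 4.51e-05) and 1.10 (SE 0.14, adjusted p = 7.14e-06) on days 1, 2 and 5 in PKR KO spleens, and by 0.77 (SE 0.14, adjusted p = 0.000238) and 0.96 (SE 0.14, adjusted p = 4.11e-05) on days 2 and 5 in WT spleens. Cxcr5 missed the threshold on day 1 in PKR KO spleens without PKR KO day 0 replicate 1 or PKR KO day 1 replicate 2 (adjusted p = 0.0817 and 0.114), or without composition scaling, with limma-trend on log2(FPKM + 0.1) or with limma-trend on log2(FPKM + 1) (adjusted p = 0.0692, 0.0971 and 0.0951). Over its alternatives Cxcr5 had an adjusted p of 0.00201 to 0.114 there. Ccr7 in PKR KO spleens had 69.7 and 64 CPM (day 0), 84.4 and 57.9 (day 1), 15.5 and 27.1 (day 2) and 22 and 26.4 (day 5). Ccr7 in WT spleens had 75.7 and 59.5 CPM (day 0), 72.9 and 75.5 (day 1), 30.8 and 27.1 (day 2) and 24.4 and 21 (day 5). Day 1 overlapped day 0, and days 2 and 5 were below both. Ccr7 fell by 1.65 (SE 0.24, adjusted p = 9.94e-05) on day 2 and 1.47 (SE 0.24, adjusted p = 0.000298) on day 5 in PKR KO spleens, and by 1.22 (SE 0.24, adjusted p = 0.00102) and 1.57 (SE 0.24, adjusted p = 0.000226) in WT spleens. On day 1 its change was 0.09 (SE 0.23, adjusted p = 0.789) in PKR KO spleens and 0.14 (SE 0.23, adjusted p = 0.659) in WT spleens. B cell markers (7 genes) were called lower in 5, 6 and 7 genes on days 1, 2 and 5 in PKR KO spleens and in 2, 3 and 7 genes in WT spleens, with a summed level of 1860 and 1920 CPM (day 0), 1220 and 1270 (day 1), 1130 and 1010 (day 2) and 939 and 1070 (day 5) in PKR KO spleens, against 1950 and 1740 CPM (day 0), 1340 and 1610 (day 1), 1260 and 1160 (day 2) and 1200 and 974 (day 5) in WT spleens. T cell markers were called lower in 8 of 8 genes on days 1, 2 and 5 in PKR KO spleens, and in 4, 8 and 8 genes in WT spleens. The part of B and T cell numbers in the Cxcr5 and Ccr7 values was not tested.

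Ccr6, a receptor of B cells and of T helper cells that make interleukin-17, was not called on any day. Ccr6 in PKR KO spleens had 10.7 and 9.92 CPM (day 0), 10.3 and 8.73 (day 1), 12 and 7.27 (day 2) and 9.01 and 8.31 (day 5). Ccr6 in WT spleens had 9.28 and 10.6 CPM (day 0), 8.73 and 11.8 (day 1), 11.7 and 11.4 (day 2) and 10.4 and 7.34 (day 5). Its libraries overlapped day 0 apart from those of day 5 in PKR KO spleens, which lay below, and those of day 2 in WT spleens, which lay above. The changes were -0.25 to 0.22 on the log2 scale. Without the library labelled PKR KO day 2 replicate 1 the day 2 change of the knockout was -0.59 (adjusted p = 0.0394). Its ligand Ccl20 had 4 counts in all libraries together. Ccr10 was not called either, with 84 counts in all, and Ccr1l1, the receptor that did not pass the filter, had 39.

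Ccr9, which brings cells to the gut and the thymus, alternated. Ccr9 in PKR KO spleens had 15 and 20.1 CPM (day 0), 7.99 and 7.06 (day 1), 20.9 and 12.9 (day 2) and 5.89 and 6.46 (day 5). Ccr9 in WT spleens had 15.7 and 14.2 CPM (day 0), 9.35 and 8.45 (day 1), 14.7 and 16.4 (day 2) and 7.07 and 5.93 (day 5). Days 1 and 5 were below day 0 in every library, and day 2 was not. Ccr9 fell by 1.22 (SE 0.20, adjusted p = 7.92e-05) on day 1 and 1.5 (SE 0.20, adjusted p = 8.99e-06) on day 5 in PKR KO spleens, and by 0.75 (SE 0.19, adjusted p = 0.00394) and 1.20 (SE 0.20, adjusted p = 0.000111) in WT spleens. On day 2 its change was -0.05 (SE 0.19, adjusted p = 0.846) in PKR KO spleens and 0.06 (SE 0.19, adjusted p = 0.834) in WT spleens, and without the library labelled PKR KO day 2 replicate 1 the change in PKR KO spleens was -0.53 (adjusted p = 0.032). Ccr9 missed the threshold on day 1 in WT spleens without composition scaling, with limma-trend on log2(FPKM + 0.1) or with limma-trend on log2(FPKM + 1) (adjusted p = 0.0575, 0.106 and 0.11). Over its alternatives Ccr9 had an adjusted p of 2.99e-05 to 0.11 there. Averaged over genotypes it rose by 0.99 from day 1 to day 2 (SE 0.14, adjusted p = 1.89e-05) and fell by 1.35 from day 2 to day 5 (SE 0.14, adjusted p = 3.02e-07) on the log2 scale.

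The receptors of effector and regulatory T cells differed among themselves. Cxcr3, which responds to Cxcl9, Cxcl10 and Cxcl11, rose while T cell markers fell. Cxcr3 in PKR KO spleens had 6.72 and 6.88 CPM (day 0), 8.66 and 9.28 (day 1), 14.2 and 11.4 (day 2) and 8.6 and 10.3 (day 5). Cxcr3 in WT spleens had 8.16 and 5.33 CPM (day 0), 12 and 11.8 (day 1), 11.9 and 12.5 (day 2) and 9.88 and 9.69 (day 5). Every treated library lay above both day 0 libraries of its genotype. Cxcr3 rose by 0.91 (SE 0.18, adjusted p = 0.000325) on day 2 and 0.47 (SE 0.18, adjusted p = 0.0366) on day 5 in PKR KO spleens, where its day 1 change was 0.40 (SE 0.18, adjusted p = 0.0759), and by 0.83 (SE 0.17, adjusted p = 0.000794), 0.86 (SE 0.17, adjusted p = 0.000541) and 0.54 (SE 0.17, adjusted p = 0.0192) on days 1, 2 and 5 in WT spleens. Cxcr3 missed the threshold on day 5 in PKR KO spleens without PKR KO day 0 replicate 1, PKR KO day 0 replicate 2 or PKR KO day 5 replicate 2 (adjusted p = 0.111, 0.0921 and 0.217), or without composition scaling, with limma-trend on log2(FPKM + 0.1), with limma-trend on log2(FPKM + 1), with summed transcripts or with the protein-coding transcript (adjusted p = 0.0855, 0.103, 0.104, 0.0799 and 0.0561). Over its alternatives Cxcr3 had an adjusted p of 0.0257 to 0.217 there. Cxcr3 missed the threshold on day 5 in WT spleens without WT day 0 replicate 2, WT day 5 replicate 1 or WT day 5 replicate 2 (adjusted p = 0.261, 0.0627 and 0.0856), or in a fit of the compared groups alone (adjusted p = 0.0529). Over its alternatives Cxcr3 had an adjusted p of 0.00122 to 0.261 there. Cxcr6, the receptor of Cxcl16 on NKT cells and tissue-resident T cells, fell. Cxcr6 in PKR KO spleens had 8.26 and 10.8 CPM (day 0), 3.23 and 3.4 (day 1), 1.28 and 2.02 (day 2) and 2.68 and 3.44 (day 5). Cxcr6 in WT spleens had 7.46 and 5.5 CPM (day 0), 3.77 and 4.78 (day 1), 0.91 and 0.952 (day 2) and 3.55 and 1.93 (day 5). Day 2 was the lowest in both genotypes. Cxcr6 fell by 1.52 (SE 0.26, adjusted p = 0.000157), 2.52 (SE 0.28, adjusted p = 9.62e-07) and 1.64 (SE 0.27, adjusted p = 7.85e-05) on days 1, 2 and 5 in PKR KO spleens, and by 2.79 (SE 0.30, adjusted p = 6.89e-07) and 1.24 (SE 0.27, adjusted p = 0.00129) on days 2 and 5 in WT spleens, where its day 1 change was -0.59 (SE 0.25, adjusted p = 0.0652).

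Ccr4 and Ccr8, found on regulatory T cells and T helper cells, were lowest on day 2 as well. Ccr4 fell by 1.96 (SE 0.37, adjusted p = 0.000276) on day 2 and 0.84 (SE 0.34, adjusted p = 0.0499) on day 5 in PKR KO spleens and by 2.65 (SE 0.40, adjusted p = 3.45e-05) on day 2 in WT spleens. Ccr8 fell by 2.08 (SE 0.48, adjusted p = 0.00154) in PKR KO spleens and by 1.13 (SE 0.42, adjusted p = 0.0367) in WT spleens on day 2. Ccr4 missed the threshold on day 5 in PKR KO spleens without PKR KO day 0 replicate 1, PKR KO day 0 replicate 2 or PKR KO day 5 replicate 1 (adjusted p = 0.114, 0.146 and 0.367), or without a filter on low counts, with the size factors of DESeq2 or with DESeq2 (adjusted p = 0.0539, 0.0506 and 0.0899). Over its alternatives Ccr4 had an adjusted p of 0.0236 to 0.367 there. Ccr8 missed the threshold on day 2 in WT spleens without WT day 0 replicate 2 or WT day 2 replicate 1 (adjusted p = 0.181 and 0.22), or without a filter on low counts, with DESeq2, with summed transcripts or in a fit of the compared groups alone (adjusted p = 0.084, 0.108, 0.0522 and 0.0824). Over its alternatives Ccr8 had an adjusted p of 0.0271 to 0.22 there. The T cell markers given above fell on that day too, and their part in the Ccr4, Ccr8 and Cxcr6 values was not tested.

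Members that lie together did not always move together. On chromosome 11, between 82035571 and 82179812 in mm10, Ccl2, Ccl7 and Ccl12 were the 3 tested of 6 members. None of the 3 had a day 0 library at the filter's cutoff, so their higher calls on day 1 in both genotypes are a description. The next cluster of that chromosome, from 83525778 to 83664683, held Ccl5, Ccl9, Ccl6, Ccl3 and Ccl4, of which 4 were lower on day 2 in PKR KO spleens and 3 in WT spleens, with none higher. On chromosome 5, from 92321347 to 92363277, Cxcl10 was called on day 1 and Cxcl9 was not, and Cxcl11 passed the filter through day 1. The receptor cluster of chromosome 9, from 123767211 to 124132484, held receptors that moved in both directions. On day 1 Ccr9, Cxcr6, Ccr3 and Ccr2 were lower in PKR KO spleens, while in WT spleens Ccr1 was higher and Ccr3 and Ccr9 were lower. Cxcr2 and Cxcr1, neighbours on chromosome 1 from 74153991 to 74193235, were both higher on day 1 in both genotypes. For Cxcr1, which had no day 0 library at the filter's cutoff, this is a description.

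Set side by side without regard to day 0, 29 of 34 members were called between days 2 and 1 averaged over genotypes. Of these, 5 were higher and 24 lower on day 2, where 42.3% of all genes were called (21.9% higher and 20.5% lower). The 5 higher were Cxcl12, Cxcl13, Ccr9, Ccl25 and Cxcr4. Cxcr4, higher by 0.42 (SE 0.10, adjusted p = 0.00271), was no longer called without composition scaling (0.141) or with limma-trend (0.18 and 0.187). Between days 5 and 2, 20 members were called, 9 higher and 11 lower on day 5. Of all genes, 45.8% were called there (22.8% higher and 22.9% lower). Both comparisons use the libraries of day 2, and those of days 1 and 5 also enter the comparisons with day 0.

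Other genes of the same pathway were read from lists of 7 further chemokines, 8 further or atypical receptors and 23 signalling genes. Of the 6 further chemokines tested, PKR KO spleens had 1 higher and 1 lower call on day 1, 2 higher and 2 lower calls on day 2, and 1 of each on day 5. WT spleens had 2 higher and 1 lower, 3 higher and 2 lower, and 1 of each on these days. Of all genes tested, 41.6%, 49.3% and 44.5% were called on these days in PKR KO spleens, and 44.6%, 45.2% and 39.4% in WT spleens. Mif, a cytokine that also binds Cxcr2 and Cxcr4, rose by 2.23 (SE 0.17, adjusted p = 1.92e-08) on day 1 and 1.58 (SE 0.16, adjusted p = 3.66e-07) on day 2 in PKR KO spleens, and by 1.93 (SE 0.16, adjusted p = 1.01e-07) and 1.41 (SE 0.16, adjusted p = 1.62e-06) in WT spleens. Of the 8 further receptors, PKR KO spleens had 2 higher and 2 lower calls on day 1, 1 higher and 3 lower on day 2, and 3 higher and 1 lower on day 5. WT spleens had 2 higher and 2 lower, 2 higher and 3 lower, and 2 higher and 1 lower. The shares of all genes called are those given for the further chemokines. Ackr1, an atypical receptor that binds many chemokines without G protein signalling on red cell precursors and venules, rose by 4.53 (SE 0.69, adjusted p = 0.000267) on day 5 in PKR KO spleens and by 3.70 (SE 0.66, adjusted p = 0.00104) in WT spleens. Erythroid markers were called higher on day 5 in 8 of 8 genes in both genotypes, with a summed level of 571 and 909 CPM (day 0), 133 and 265 (day 1), 58.2 and 178 (day 2) and 12300 and 9220 (day 5) in PKR KO spleens, against 299 and 700 CPM (day 0), 330 and 157 (day 1), 117 and 152 (day 2) and 6470 and 4440 (day 5) in WT spleens. Their part in the Ackr1 values was not tested. Xcr1, the receptor of cross-presenting dendritic cells, fell by 2.13 (SE 0.39, adjusted p = 0.000279) on day 1 in PKR KO spleens and by 2.09 (SE 0.38, adjusted p = 0.000222) in WT spleens.

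Of the 23 signalling genes, all tested, PKR KO spleens had 2 higher and 10 lower calls on day 1, 2 higher and 15 lower on day 2, and 2 higher and 10 lower on day 5. WT spleens had 3 higher and 11 lower, 2 higher and 14 lower, and 3 higher and 8 lower. Among all genes tested, 19.5%, 23% and 20.3% were called lower on days 1, 2 and 5 in PKR KO spleens and 21.4%, 21.3% and 17% in WT spleens. Called higher were 22.1%, 26.2% and 24.2% in PKR KO spleens and 23.3%, 23.9% and 22.4% in WT spleens. Single libraries and the scaling decided some of these counts. On day 1 in WT spleens 9 of the 14 calls ended without WT day 1 replicate 2, which left 0 higher and 5 lower. There were 2 higher and 7 lower without WT day 0 replicate 1, 5 higher and 5 lower without composition scaling, and 4 higher and 5 lower with limma-trend. On day 5 in WT spleens there were 1 higher and 4 lower without WT day 0 replicate 1, 1 higher and 6 lower without WT day 5 replicate 1, 2 higher and 3 lower without WT day 5 replicate 2, and 2 higher and 5 lower with limma-trend. In PKR KO spleens there were 0 higher and 7 lower on day 1 without PKR KO day 1 replicate 2, and 2 higher and 5 lower on day 5 without PKR KO day 5 replicate 1. Their median log2 change was -0.26, -0.52 and -0.28 on days 1, 2 and 5 in PKR KO spleens and -0.28, -0.51 and -0.30 in WT spleens. Arrb1, a beta-arrestin that ends G protein signalling of these receptors, fell by 0.93 (SE 0.13, adjusted p = 1.41e-05) on day 1 and rose by 2.16 (SE 0.13, adjusted p = 3.56e-10) on day 5 in PKR KO spleens, and fell by 1.26 (SE 0.13, adjusted p = 5.34e-07) and rose by 1.72 (SE 0.13, adjusted p = 1e-08) in WT spleens. Rgs18, which speeds the turning off of G proteins, fell by 2.54 (SE 0.26, adjusted p = 3.42e-07) on day 2 in PKR KO spleens and by 1.93 (SE 0.25, adjusted p = 6.66e-06) in WT spleens.

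No member was called between PKR KO and WT spleens on any day, in the average over days, or in the difference of the changes. By edgeR the counts of calls were 0 on days 0, 1, 2 and 5, where 0.016%, 0.176% (0.128% higher and 0.0479% lower), 0% and 0.00532% of all genes were called. At an unadjusted p under 0.05 there were 4, 4, 7 and 1 of 34 members, against 1105, 1751, 868 and 1229 of all 18789 genes tested. DESeq2 called 0, 1, 0 and 0 members. Averaged over days there were 0 calls and 0 by DESeq2, with 0.0266% of all genes called. In that average 3 members and 1045 of all genes had an unadjusted p under 0.05. The change from day 0 in PKR KO minus that in WT spleens had 0 calls on days 1, 2 and 5. Of all genes, 0.16%, 0% and 0% were called. At an unadjusted p under 0.05 there were 5, 4 and 3 members, against 2490, 752 and 1477 of all genes. DESeq2 called 1, 0 and 0 members. The smallest adjusted p over these comparisons was 0.119. A p above the threshold does not show that the genotypes were equal, and the intervals give the sizes still possible.

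Cxcr4 came nearest to the threshold. On day 1 it differed between PKR KO and WT spleens by -0.56 (95% interval -0.86 to -0.26, adjusted p = 0.135), and on day 2 by -0.57 (95% interval -0.87 to -0.27, adjusted p = 0.486). On day 0 the difference was 0.22 (95% interval -0.07 to 0.52, adjusted p = 0.815) and on day 5 -0.01 (95% interval -0.30 to 0.29, adjusted p = 0.998). Both libraries labelled PKR KO lay below both WT libraries on days 1 and 2. One of the libraries of day 2 is PKR KO day 2 replicate 1, whose Eif2ak2 level goes against its label, and without it the day 2 difference was -0.48 (95% interval -0.84 to -0.13, adjusted p = 0.437). The change to day 1 differed by -0.78 (95% interval -1.21 to -0.36, adjusted p = 0.119). The member that DESeq2 called was Cxcr4, with -0.55 on day 1 (adjusted p = 0.0405) and -0.78 for the difference of the changes to day 1 (adjusted p = 0.0298). By edgeR, Cxcr4 was called on day 1 without composition scaling (-0.76, adjusted p = 0.027), without a filter on low counts (-0.61, adjusted p = 0.00137) and in a fit of the compared groups alone (-0.53, adjusted p = 0.0463). The other alternatives run did not call the day 1 difference of Cxcr4. Without a filter on low counts, edgeR also called its day 2 difference (-0.59, adjusted p = 0.00917). That fit called the difference of the changes to day 1 (-0.83, adjusted p = 0.00214) and to day 2 (-0.81, adjusted p = 0.0281) as well. Without WT day 0 replicate 1 the difference of the changes to day 1 was -0.90.

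Cxcl12 differed on day 2 by 1.42 (95% interval 0.71 to 2.13, adjusted p = 0.484), with 2.31 and 2.47 CPM in the libraries labelled PKR KO and 0.558 and 1.18 CPM in WT libraries. The groups did not overlap. Without PKR KO day 2 replicate 1, the library of 2.31 CPM, the difference was 1.43 (95% interval 0.60 to 2.27, adjusted p = 0.349), and without a filter on low counts the difference was called (1.40, adjusted p = 0.0447). Cxcl13 averaged over days differed by 0.59 (95% interval 0.16 to 1.02, adjusted p = 0.75) and Ccl25 by 0.32 (95% interval 0.08 to 0.55, adjusted p = 0.75). On day 1 Cxcl16 differed by -0.70 (95% interval -1.21 to -0.18, adjusted p = 0.318), Cxcl10 by -0.51 (95% interval -1.08 to 0.06, adjusted p = 0.58) and Ccl2 by -0.94 (95% interval -2.04 to 0.16, adjusted p = 0.599). By edgeR, Cxcl16 was called there without a filter on low counts (-0.75, adjusted p = 0.044) and in a fit of the compared groups alone (-0.67, adjusted p = 0.0441). The other alternatives run did not call Cxcl16. Cxcr2 on day 2 differed by 1.13 (95% interval 0.13 to 2.13, adjusted p = 0.994), and by 1.5 (95% interval 0.43 to 2.57, adjusted p = 0.458) without the library labelled PKR KO day 2 replicate 1. The change of Ccl9 to day 2 differed by -1.05 (95% interval -1.72 to -0.39, adjusted p = 1), and by -1.35 (95% interval -2.09 to -0.60, adjusted p = 0.695) without that library. The averages over days without it were 0.61 for Cxcl13 and 0.35 for Ccl25 (adjusted p = 0.413 and 0.334). These intervals are not adjusted for the number of members.

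**Figure D4:**
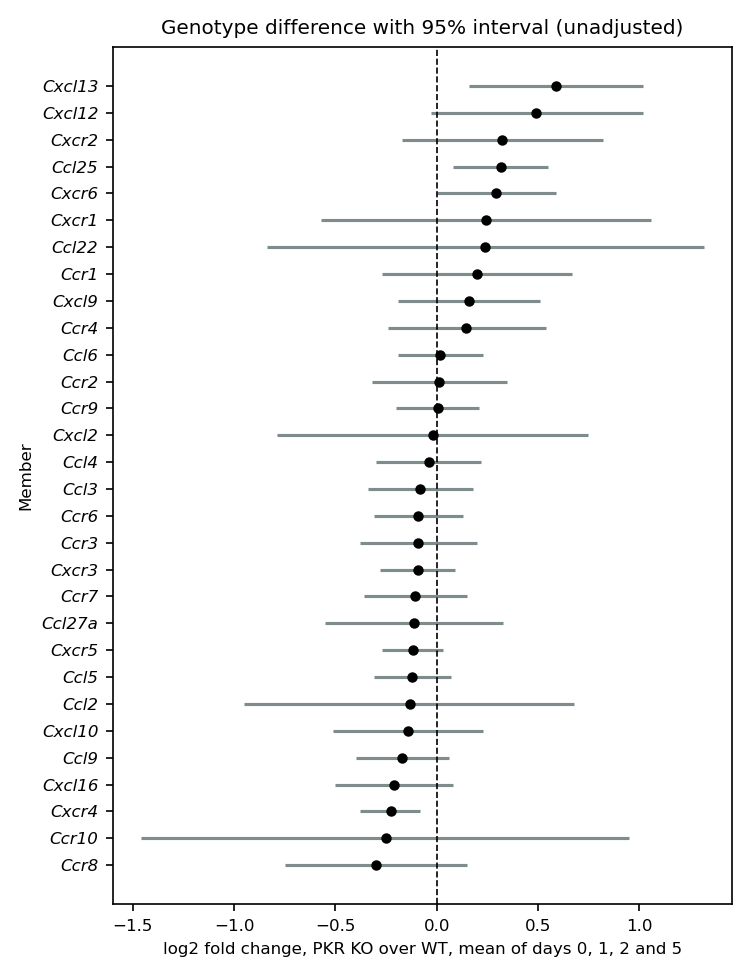
Log2 difference between PKR KO and WT spleens, averaged over days 0, 1, 2 and 5, for each tested member named in the text except Cxcl11, Ccl12 and Ccl7 (rows). Points are the fitted differences and bars their unadjusted 95% intervals, with positive values higher in PKR KO spleens. The intervals of Cxcl13 (0.16 to 1.02), Ccl25 (0.08 to 0.55) and Cxcr4 (-0.38 to -0.08) do not reach 0, and no member passed the adjusted threshold.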

How the data were processed

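RNA was measured in 16 spleen libraries. Per the labels' protocols, spleens were minced over a mesh of 70 µm, freed of red cells by lysis and extracted with TRIzol. Stranded libraries depleted of ribosomal RNA were sequenced on a NovaSeq. The submitters' processing notes name mm10, bcl2fastq 2.17.1.14, Trimmomatic, HISAT2 and TopHat. The sources used here do not name the program that counted fragments or its annotation.

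The tables hold, per the file headers, a fragment count for each of 142604 transcripts. They also hold FPM, a signal scaled to total fragments, and FPKM, FPM per kilobase of transcript, both as deposited by the authors. The count over FPM gave each library's total. Transcript counts summed to 1.48 to 2.12 times these totals, so isoforms share fragments and 1 transcript per symbol was kept, leaving 19791537 to 51692652 counts per library. GENCODE release 21 of the mouse, which gave types and positions, held 98.701% of the identifiers.

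Counts were tested with edgeR 4.0.16 under R 4.3.3 (TMM factors, filterByExpr, robust quasi-likelihood F test, two-sided, 8 group means, 8 residual degrees of freedom), with Benjamini-Hochberg adjustment over 18789 symbols in each of 16 comparisons. Where no other tool is named, an adjusted p is that of edgeR, and the SE is the change over the square root of F. CPM, on the scale of FPM, is the count over library fragments times the TMM factor. A symbol at 0 in a group was set against a floor of 3 counts per library. Counting intervals cover counting error only. The same test was also run on counts simulated after the fit, with a spread taken from the fit and equal for every gene. Alternatives dropped the filter or asked 2 libraries for an FPKM of at least 1, and used other scaling, DESeq2 1.42.0, limma 3.58.1 on log2(FPKM + 0.1) and log2(FPKM + 1), other transcripts, a replicate block, and each library left out.

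Replicate numbers are not tied to litters or days in the labels, and samples that share a number were not paired. Members and gene lists were chosen with earlier results of these data known. Values in every library are given for up to 6 rises and 6 falls among the calls of each comparison with day 0 (with an average FPKM of at least 1 in the group where it is higher), and for a panel of 19 members. The values of 1 tested member are not reported here, and it stays in the counts and medians.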

Additional observations from a re-analysis of the deposited data

How the results depend on the processing

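Of 2311 recomputed values of called members, 2129 kept their direction and their side of the threshold, 181 kept the direction and lost the call, and 1 turned round, Ccl2 on day 2 in PKR KO spleens without PKR KO day 2 replicate 2 (-0.875, where the values without the other libraries reached 2.793). With limma-trend on log2(FPKM + 1), which tested 25 members, 12 were called on day 2 in WT spleens and 13 between days 5 and 2, against 19 and 20 of 34. Between PKR KO and WT spleens on day 1, 3 members were called without a filter on low counts, 3 in a fit of the compared groups alone, 1 without composition scaling and 1 with DESeq2. On day 2 the unfiltered fit called 2. For the difference of the changes, the unfiltered fit called 3, 1 and 1 on days 1, 2 and 5, and DESeq2 called 1 on day 1. The cause was not tested.

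With each library left out in turn, the calls against day 0 numbered 14 to 18, 16 to 24 and 8 to 11 on days 1, 2 and 5 in PKR KO spleens and 16 to 20, 15 to 18 and 6 to 9 in WT spleens. The low of 8 on day 5 came without PKR KO day 0 replicate 2 and without PKR KO day 5 replicate 1. Calls between days 2 and 1 numbered 26 to 30, and between days 5 and 2 16 to 21. The counts between the genotypes were 0 throughout, and the difference of the changes to day 1 had 0 to 1. On day 5 in PKR KO spleens limma-trend called 0 of these 25 higher and 9 or 10 lower, against 2 and 11 of 34. Of those 2, Cxcl12 was not tested there and Cxcr3 was not called.

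Same-numbered replicates were not shown to be paired: their deviations correlated at -0.211 to 0.334 over 28 pairs of groups (median 0.0144, 5 above 0.1). With the replicate number as a block, 148 of 151 calls were kept, and the 3 lost were Ccr2 on day 1 (adjusted p = 0.053), Ccr3 on day 5 (0.0543), both in PKR KO spleens, and Ccr1 between days 5 and 2 (0.0619). Depth limits the 20 members that were not tested, and Ccl12, Ccl7 and Cxcl11, whose folds are bounds or ratios of few counts. With 2 libraries a group, each of them carries much of its group's value.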
